A study of Homo sapiens with 2 samples.

Results

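The intergenic peaks of a NUDT21 eCLIP-seq experiment are described here, with their positions relative to the 3' ends of the genes that precede them. They were chosen by position alone. A peak was a member when its midpoint on chromosomes 1 to 22, X or Y lay outside the body of every GENCODE 44 gene, and 924 of the 20493 peaks on these chromosomes (20499 in the whole list) met this rule. The members came to 241 kb of sequence. They were then placed by the distance to the nearest upstream 3' end, that is, the closest annotated gene end that a polymerase leaving that gene would pass before it reached the peak.

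The study mapped RNA contacts of NUDT21 to ask whether it acts directly on the 3' end processing of its target transcripts. The cells were J-Gamma1, an established line of T-cell acute lymphoblastic leukemia (T-ALL) that was derived from Jurkat. All cells were crosslinked on ice with 2 exposures to UV-C light of 254 nm at 400 mJ each. They were then lysed for 15 min and digested with 40 U of RNase I for 5 min. There was 1 library made with the NUDT21 antibody and 1 input library, both of this single line. The results below come from the peaks called for the antibody library, while values of the input itself were not analysed here. With 1 replicate, no comparison between conditions was possible. Since the peaks of 1 library do not replicate each other, no test was run over them, and every interval given here is a 95% interval for counting error alone. The number of reads behind the list was unknown.

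NUDT21, also called CFIm25, is the subunit of cleavage factor I that recognises UGUA in RNA, usually upstream of the site where the nascent transcript is cut and polyadenylated. RNA polymerase II does not stop at that site. It continues into the sequence downstream, and the RNA made there is normally degraded from its free 5' end as transcription terminates. Peaks past an annotated gene end may therefore lie in RNA from such readthrough, in a 3' UTR longer than the annotation, in a transcript that starts nearby, or in no transcript of that gene. The deposited list carried no strand, and these origins cannot be told apart from position alone. Of 13 T-cell marker genes, 5 held peaks in their bodies, as did 6750 of 20033 protein-coding genes. These were CD3E, CD247 and ZAP70 of the T-cell receptor complex and its signalling, PTPRC (CD45) and the T-lineage factor BCL11B, with 19 peaks in all. The other 8 held no peak, among them CD3D, CD2, LCK and TRAC. None of 9 marker genes of other blood cells held a peak.

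The sequences below show what lay under the tallest intergenic peaks, and where the motif of NUDT21 fell in named peaks past gene ends. The first set lies in the members that matched mitochondrial ribosomal RNA, shown on the minus strand of hg38, which reads like the RNA. Capitals mark bases that differ from the mitochondrial reference, and their absence means an exact copy in the window shown.

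chr11:10509406-10509435, peak of 23 steps: tttagcagtaaactaagagtagagtgctta

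chr3:96617934-96617963, peak of 16 steps: acacccgtctatgtagcaaaatagtgggaa

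chrX:126472650-126472679, peak of 14 steps: atcaaaaggaacaagTatcaagcacgcagc

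chr3:96617369-96617398, peak of 5 steps: catcacctctagcatTaTcagtattagagg

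The second set holds UGUA, written TGTA in the reference and set in capitals, on the strand of the upstream gene. ZC3HAV1L was taken as the gene with most members and CSTF2 from a gene list. Only their peaks with the motif are shown, so the set does not show how often the motif occurs. The first windows come from the 5 peaks with this motif past the end of ZC3HAV1L (minus strand), in order of distance. The last comes from the peak whose midpoint lay past the end of CSTF2 (plus strand).

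ZC3HAV1L, chr7:139025075-139025104: cactcctttaaatTGTAtccattcttcctg

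ZC3HAV1L, chr7:139024088-139024117: caagtcgcatgtcTGTAgactctacaaatt

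ZC3HAV1L, chr7:139023826-139023855: ccTGTAcatactgccttgtttcaaaccctc

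ZC3HAV1L, chr7:139023399-139023428: gacgcctgcctctTGTAtccacgtgggaat

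ZC3HAV1L, chr7:139022764-139022793: aagaggtgactctTGTAgcattcttacagg

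CSTF2, chrX:100841561-100841590: tgcagccctacccTGTAactacgtttattc

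Intergenic peaks were a small share of the list, 4.51% (4.23 to 4.80%), beside 7801 peaks in introns and 11768 in exons. The shortest was 48 nt and the longest 499 nt, the median length was 262 nt, and 856 of the 924 (92.6%) lay wholly outside every gene body. The others reached into a gene with one end. The share of intergenic peaks ran from 2.31% of the peaks of chromosome 12 to 9.02% of the 610 of the X chromosome, leaving aside chromosome Y, whose only peak was intergenic. Per Mb of intergenic sequence the order was another, with 0.654 members on the X chromosome, below the 0.796 of the genome, and most, 1.98, on chromosome 22. The boundary of the rule cut through a continuous set of positions. The peak just outside a gene body, with its midpoint 1 nt before the start of SUDS3, had 5 Score steps. A peak with its midpoint 2 nt inside a body on chromosome 17 had 4. The SUDS3 peak was 421 nt long and reached into the gene, where 210 of its bases matched the start of a SUDS3 transcript. In all, 31 members had their midpoint within 50 nt of a gene body, and 38 peaks inside genes lay as close to the edge.

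The 924 members were divided almost equally between the 10 kb after gene ends and more distant sequence. Within 1 kb of an upstream 3' end lay 130 peaks (14.1%, 11.9 to 16.5%), and 217 (23.5%, 20.8 to 26.4%) lay between 1 and 5 kb. A further 106 (11.5%, 9.49 to 13.7%) lay between 5 and 10 kb, which brought the number within 10 kb to 453 (49.0%, 45.8 to 52.3%). The remaining 471 (51.0%) were farther away. The median distance of all members was 10703 nt. Just within and just beyond 1 kb were peaks at 995 nt with 2 steps and at 1002 nt with 1 step. At 5 kb the nearest peaks were at 4964 and 5023 nt, and at 10 kb at 9922 and 10166 nt, each with 1 step.

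These numbers have to be read against the amount of sequence in each class. The human genome held 1161 Mb of intergenic sequence by the same definition, of which only 2.65% lay within 1 kb past a 3' end and 20.0% within 10 kb. Peaks occurred at 4.22 per Mb (3.53 to 5.01) within the 1 kb after gene ends. The density was 2.13 per Mb (1.85 to 2.43) from 1 to 5 kb and 1.07 per Mb (0.875 to 1.29) from 5 to 10 kb. Sequence farther than 10 kb held 0.507 per Mb (0.462 to 0.555). The density within 10 kb of a 3' end was 3.85-fold (3.38 to 4.39) that of the rest, so intergenic peaks were concentrated near gene ends and thinned out with distance.

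**Figure D1:**
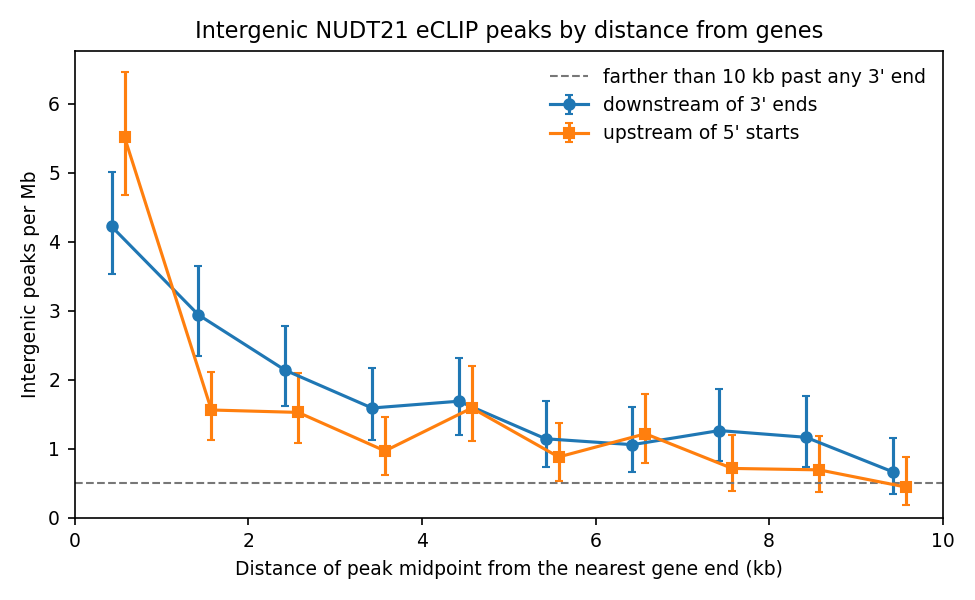
Density of intergenic peaks (peaks per Mb of intergenic sequence) in 1 kb bins of distance, downstream of gene 3' ends (circles) and upstream of gene 5' starts (squares), with exact 95% Poisson intervals. Both curves fall from their highest value in the bin next to the gene (4.22 and 5.52 per Mb), and the dashed line marks the 0.507 per Mb found farther than 10 kb past any 3' end.

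The side of the gene made a smaller difference than the nearness to it. Within 1 kb upstream of a 5' start there were 155 peaks, or 5.52 per Mb (4.68 to 6.46), and the density downstream over upstream was 0.766 (0.602 to 0.973) at this distance. At 2 or more Score steps it was 0.961 (0.601 to 1.54) and at 5 or more 0.609 (0.178 to 1.91). Both of these intervals include 1. Over all members, the order turned with distance. Within 5 kb the ratio was 1.12 (0.956 to 1.31), an interval that includes 1, and within 10 kb it was 1.17 (1.02 to 1.35). The excess within 10 kb did not hold under every setting. The ratio was 1.01 (0.885 to 1.14) with protein-coding gene bodies only, 1.29 (0.705 to 2.38) at 5 or more Score steps and 1.31 (0.667 to 2.60) at a fold enrichment of at least 2. Much of the sequence near a gene end is also near a gene start, and 221 members (23.9%) lay within 10 kb of both. Such members entered both counts, which the intervals of the ratios above do not take into account. When only positions on one side were counted, 232 members lay downstream only and 151 upstream only, and the ratio of their densities was 1.45 (1.18 to 1.79). Neither end was within 10 kb for 320 members (34.6%), in 67.9% of the sequence.

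The members were also grouped by the orientation of the flanking genes. Of the members, 273 (29.5%) lay between the 3' ends of converging genes, in 25.8% of the intergenic sequence, at 0.911 per Mb (0.806 to 1.03). Between the 5' starts of diverging genes lay 189 (20.5%) in 20.9% of the sequence, at 0.781 per Mb (0.673 to 0.900). Gaps with a 3' end on one side and a 5' start on the other held 461 members at 0.752 per Mb (0.685 to 0.824). The intervals of these 3 densities overlapped.

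The nearer a member lay to a 3' end, the more often that end belonged to a protein-coding gene or to a gene with an exonic NUDT21 peak in its body. A peak counted as exonic when its midpoint lay in an exon of any GENCODE gene. That exon could thus belong to an overlapping gene. Within 1 kb, the upstream gene was protein-coding for 76.9% of members and held an exonic peak for 53.1% (44.1 to 61.9%). From 1 to 5 kb, these shares were 62.7% and 32.7% (26.5 to 39.4%), and from 5 to 10 kb 56.6% and 25.5% (17.5 to 34.9%). Farther than 10 kb, they were 32.1% and 10.2% (7.61 to 13.3%). Here too the sequence was taken into account. The 1 kb after genes with an exonic peak made up 2.97 Mb and held 69 members, or 23.3 per Mb, and the 1 kb after all other genes made up 27.8 Mb and held 61 members, or 2.19 per Mb. The density after genes with an exonic peak was thus 10.6-fold higher (7.41 to 15.2) within 1 kb. The ratio was 6.94 (5.56 to 8.64) within 5 kb and 6.37 (5.23 to 7.74) within 10 kb. After protein-coding genes it was 3.51-fold (2.88 to 4.28) that after other genes, within 10 kb. How strongly each gene was transcribed is not in the list, and its part in these ratios was not tested. Another gene body lay between the peak and its upstream 3' end for 2 of the 130 members within 1 kb, for 18 of 217 from 1 to 5 kb, and for 27 of 106 from 5 to 10 kb.

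**Figure D2:**
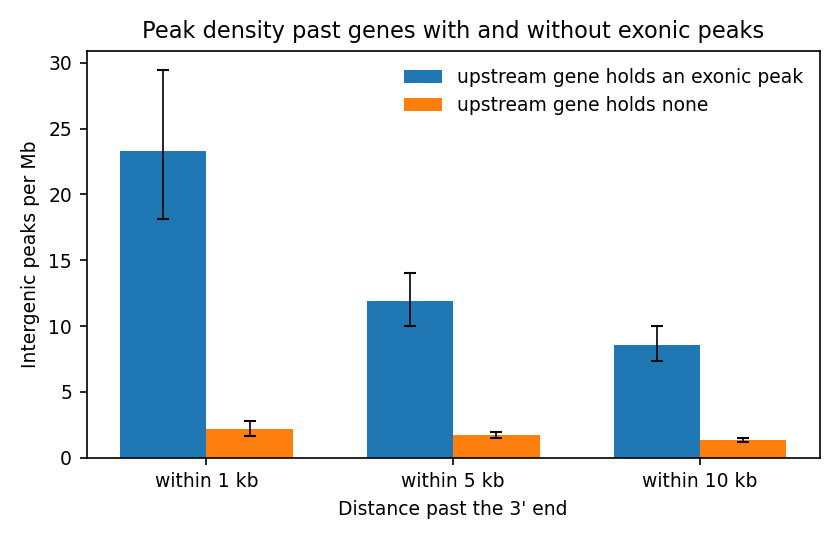
Density of intergenic peaks (peaks per Mb) within 1, 5 and 10 kb past the 3' ends of genes whose body held an exonic NUDT21 peak (midpoint in an exon of any gene) and of genes whose body held none, with exact 95% Poisson intervals. The gap narrows with distance, from 23.3 against 2.19 per Mb within 1 kb to 8.57 against 1.35 per Mb within 10 kb.

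Most intergenic peaks were as low as the list allowed. The deposited Score of each peak was a whole number of steps of 0.228, taken from its values as the pileup over the peak, and 732 members (79.2%, 76.5 to 81.8%) had the lowest Score of the list, 1 step. In introns this share was 61.5%, and in exons 14.3%. Only 36 members (3.90%, 2.74 to 5.35%) reached 5 steps, where the whole list had 42.3%. Introns had 9.37% and exons 67.2%. A fold enrichment over the local background of at least 2 was listed for 29 members (3.14%), against 38% of the whole list. The members' fold enrichment ran from 1.17 to 3.38, and 720 of them were at the lowest value.

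No member had a deposited FDR under 0.05, and all 924 were listed at 1. The exact upper bound of that share was 0.398%, against 0.0927% of the whole list. The deposited p-value was 0.0469, the commonest value, for 876 members, and the lowest was 3.86e-05, at a peak near CNOT6L. By these deposited values, no single member met the q-value threshold of 0.05 that the methods name.

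Pileup was unevenly spread over the distance classes. Peaks of 5 or more steps made up 4.62% (1.71 to 9.78%) of members within 1 kb, 7.37% (4.27 to 11.7%) from 1 to 5 kb and 5.66% (2.11 to 11.9%) from 5 to 10 kb. Farther than 10 kb they made up 1.70% (0.736 to 3.32%), or 8 of 471. Of the 36 tall members, 28 lay within 10 kb past a 3' end, 7 of them in 1 run past ZC3HAV1L and 3 in 1 group past RAET1K. The intervals here take every member as a separate place, which the peaks of such a run may not be. The density within 10 kb over that farther away rose with the pileup asked for, from 3.85 for all members to 6.67 (4.94 to 9.07) at 2 or more steps and 14.0 (6.22 to 35.6) at 5 or more. Yet 21 of the 36 also lay within 10 kb before a 5' start, 9 of them within 1 kb, and 1 lay near neither.

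**Figure D3:**
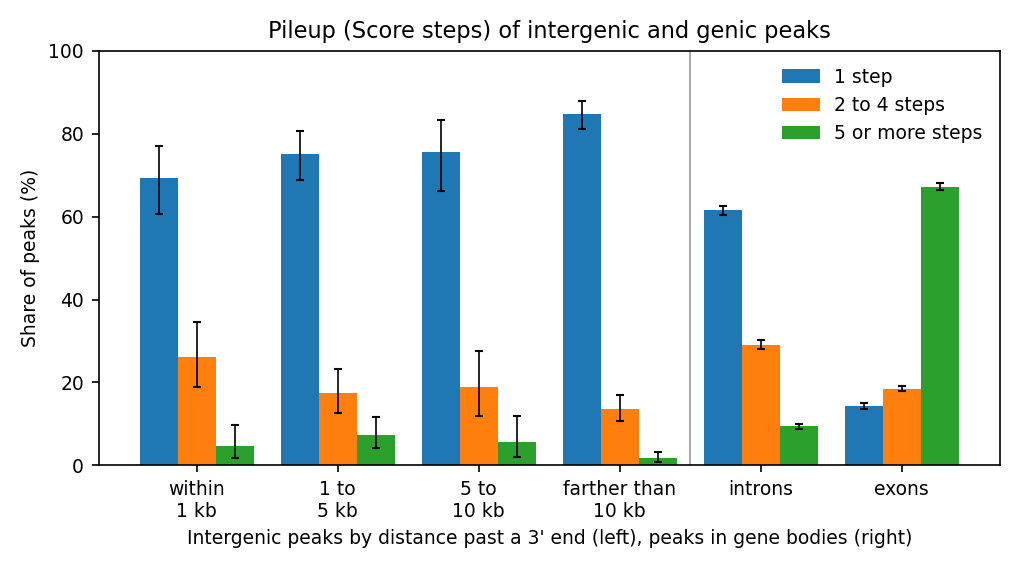
Share of peaks (%) with 1, 2 to 4, and 5 or more Score steps, for intergenic peaks in 4 classes of distance past a 3' end and for peaks in introns and exons, with exact 95% binomial intervals. Peaks of 1 step dominate all intergenic classes (69.2 to 84.7%), and exons differ from every intergenic class, with 67.2% at 5 or more steps.

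The tallest 3 members were copies of mitochondrial ribosomal RNA genes in the nuclear genome. The peak at chr11:10509393-10509447, 1841 nt past the end of AMPD3 (an AMP deaminase) and 1094 nt before the start of MIR4485, had 23 steps and a fold enrichment of 2.96. All 55 of its bases matched MT-RNR1, the 12S rRNA gene. The peak at chr3:96617914-96617983 had 16 steps and a fold enrichment of 3.04, and its 70 bases were identical to MT-RNR2, the 16S rRNA gene. It lay in MTRNR2L12, a RefSeq pseudogene derived from MT-RNR2. The peak at chrX:126472612-126472697, between the mitochondrial pseudogenes MTCO1P53 and MTND4LP1, had 14 steps and a fold enrichment of 3.38. Of its 86 bases, 84 matched MT-RNR1. A peak of 5 steps next to the chromosome 3 copy matched MT-RNR2 at 91 of 95 bases.

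In such sequences the place of origin of a read is uncertain, since the mitochondrial genome holds the same bases. The list held 0 peaks on the mitochondrial chromosome, and whether its reads were mapped there is not given in the sources used here. Words of 30 bases shared with mitochondrial DNA occurred in 9 peaks of the list, 5 of them intergenic. In all, 25 of 924 members (2.71%) matched a spliced transcript of another place at 90% identity over at least 80% of the peak, against 93 of 7801 intron peaks (1.19%). Among tall peaks the shares were 7 of 36 (19.4%, 8.19 to 36.0%) and 6 of 731 (0.821%, 0.302 to 1.78%). The 4 mitochondrial copies were among these 7. Over the whole group, 73.9% of members had no word of 30 bases that recurs elsewhere in the genome, against 78.7% in introns and 86.8% in exons.

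**Figure D4:**
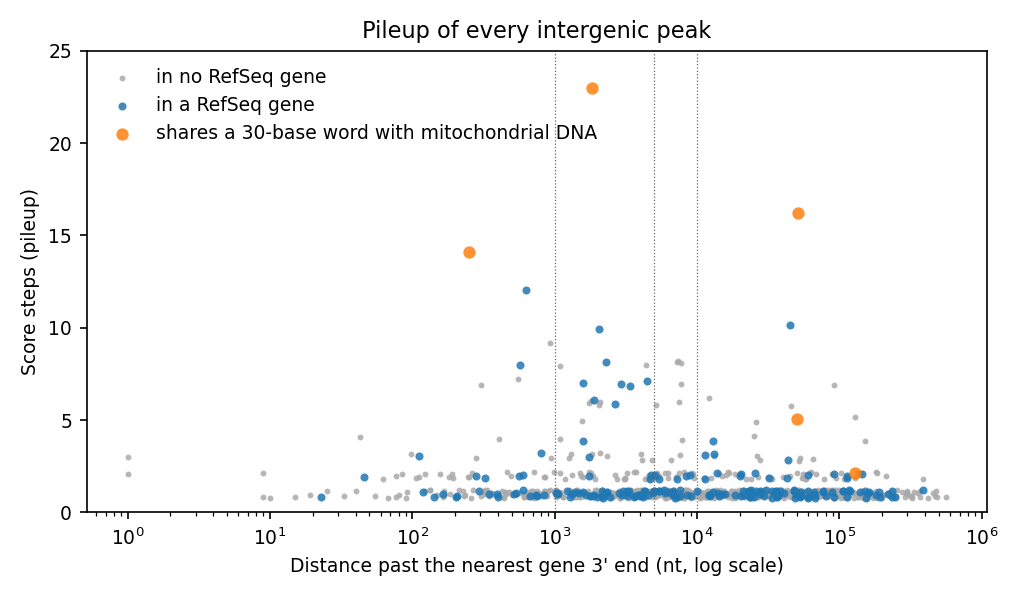
Score steps of each of the 924 intergenic peaks (vertical axis, with a small random offset so that points at the same value can be seen) against the distance past the nearest gene 3' end (nt, log scale), with dotted lines at 1, 5 and 10 kb. The 3 highest points, at 23, 16 and 14 steps, share words of 30 bases with mitochondrial DNA, and the highest of the others, at 12 steps, lies in a RefSeq gene.

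Among the remaining tall peaks, those past ZC3HAV1L stood first. This gene, a relative of the zinc finger antiviral protein gene ZC3HAV1, lies on the minus strand of chromosome 7 (139025706-139036042, ENSG00000146858.8), and 7 members followed its 3' end. In order of distance, they lay at 630, 1569, 1875, 2053, 2302, 2922 and 3387 nt and had 12, 7, 6, 10, 8, 7 and 7 steps. Each exceeded the 5 steps that 3.90% of members reached, and together they spanned 2913 nt. The deposited fold enrichment ran from 1.77 to 3.26. The body of the gene held 6 further peaks of up to 11 steps, so the highest pileup past the annotated end (12 steps) was close to the highest within the gene. All 7 lay inside ZC3HAV1L as RefSeq annotates it, with a longer 3' end than GENCODE. Of the 7, 5 held the UGUA windows shown above, and over their 780 nt the motif occurred 7 times on the strand of the gene and 5 times on the other. The farthest of the 7 shared 10 of its 20 words of 30 bases with other places in the genome.

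Most upstream genes had only a single peak behind them. The 453 members within 10 kb followed 381 genes, of which 321 had 1 member, 52 had 2, 7 had 3, and ZC3HAV1L had 7. The 3 peaks past SMC2, a condensin subunit on chromosome 9, were at 549, 1547 and 4167 nt and had 7, 5 and 1 steps. They followed a gene with 17 peaks in its body, of up to 16 steps, so here the pileup fell off past the end. HNRNPC, which encodes an RNA-binding protein that coats nascent transcripts, had 2 peaks of 6 steps each at 1812 and 2063 nt, and 18 peaks of up to 16 steps in its body. Both also lay 424 and 173 nt before the start of LINC00641, a noncoding RNA gene on the same strand.

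The other groups past genes with few or no peaks of their own looked different. Past RAET1K, a noncoding relative of the NKG2D ligand genes, 3 peaks of 8, 8 and 7 steps lay 7192 to 7698 nt from the end, while the body of the gene held 3 peaks of at most 2 steps. Another peak of 8 steps lay between the same pair of converging genes, 7679 nt past the pseudogene on the other side. The 3 peaks past GRIP1, a scaffold protein of glutamate receptors, lay at 946, 1422 and 1581 nt with 3, 1 and 2 steps, and no peak lay in the body of this gene. The same held for GNA11, a G protein alpha subunit, with members at 166, 603 and 839 nt and at most 2 steps. Past TOM1, an endosomal adaptor with 1 body peak, all 3 members had 1 step. The same was true of the 3 past MIR4665, which lay 67 to 922 nt before the start of KIAA2026 on the other strand.

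The 3 members past C19orf47 had at most 2 steps and lay within the RefSeq form of that gene. The pair past MIR331 was taller, with 9 and 8 steps at 932 and 1089 nt, and lay 478 and 321 nt before MIR3685 on the same strand. Neither MIR331 nor MIR4665 held a peak in its short body.

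**Figure D5:**
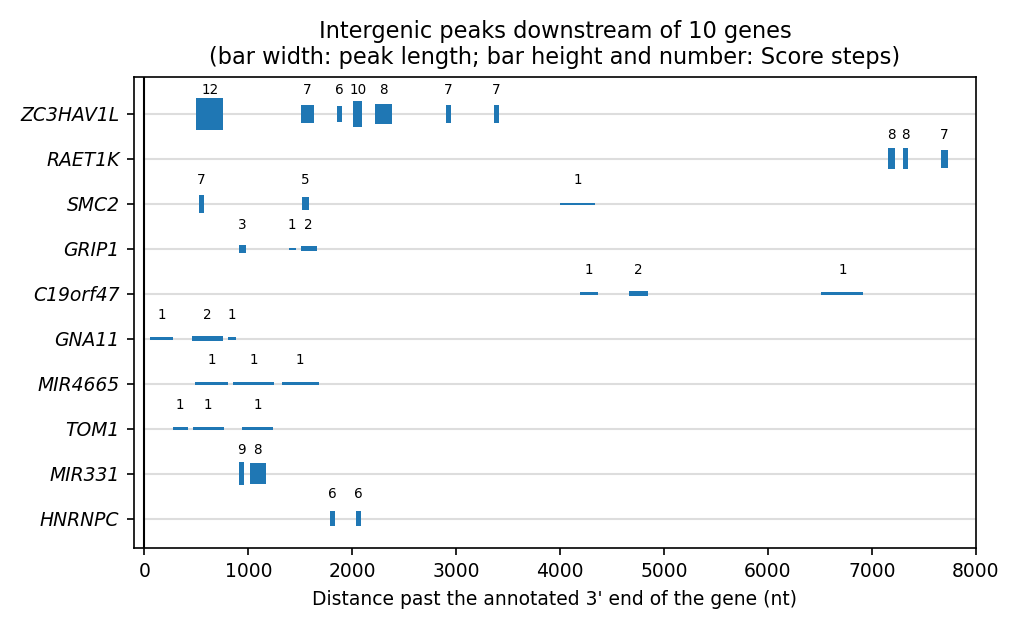
Intergenic peaks past the annotated 3' end of the 10 genes with most such peaks within 10 kb (ties ordered by summed Score), by distance from that end (nt); bar width is the peak length, and bar height and the number above it are Score steps. The 7 peaks of ZC3HAV1L have 6 to 12 steps, the 3 of RAET1K 7 or 8, and GNA11, MIR4665, TOM1 and C19orf47 have 1 or 2 throughout.

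Several other tall members lay beside gene starts. The member with the lowest p-value (3.86e-05), with 10 steps and a fold enrichment of 3.08, lay 239 nt before the GENCODE start of CNOT6L, a deadenylase of the CCR4-NOT complex, and inside the RefSeq form of the gene. A peak of 7 steps had its midpoint 123 nt before EIF2S3, the gamma subunit of the initiation factor that delivers initiator tRNA. One end of this peak reached into EIF2S3. The peak's sequence matched EIF2S3B, a retrocopy of that gene, at 93.4% identity. One of 6 steps lay 241 nt before SLC23A1, a vitamin C transporter, and 2673 nt past MZB1. It lay inside the RefSeq form of SLC23A1. The peak of 5 steps with its midpoint 1 nt before SUDS3, a Sin3 corepressor subunit, belongs here too, though it also reached into its gene. Each of these 4 peaks is therefore nearer to a 5' start than to any 3' end. Past 3' ends, NEIL3, a DNA glycosylase, had a member of 8 steps at 570 nt, and XYLB, xylulokinase, one of 7 steps at 4468 nt. Both lay inside the RefSeq forms of these genes. A member of 6 steps 5130 nt past MAPRE1, a microtubule end-binding protein, lay between the starts of ENSG00000260536 and ENSG00000260257, 1086 nt before the latter. The members past COX7C, a cytochrome oxidase subunit, and DDIT4, a stress-induced inhibitor of mTOR signalling, lay over 10 kb away.

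Part of the group lay inside genes of another annotation. In RefSeq (GRCh38.p14), 192 of the 924 members (20.8%, 18.2 to 23.5%) lay inside a gene, 85 of them inside a protein-coding gene and 105 inside a long noncoding RNA gene. RefSeq genes covered 12.8% of the intergenic sequence, which gave 1.29 members per Mb (1.12 to 1.49) inside them and 0.723 per Mb (0.672 to 0.778) elsewhere. The RefSeq gene bore the name of the upstream gene for 42 members and of the gene with the nearest 5' start for 26. The share of tall peaks was 13 of 192 (6.77%, 3.65 to 11.3%) inside RefSeq genes and 23 of 732 (3.14%, 2.00 to 4.68%) outside, with overlapping intervals. Of the 13, 7 were the single run past ZC3HAV1L, and the mitochondrial copies in MTRNR2L12 were also among them. Of the 36 tall members, 4 were mitochondrial copies, 11 of the others lay in a RefSeq gene, and 21 were neither.

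Members also came in close groups, though seldom. Chaining peaks less than 1 kb apart gave 814 groups, of which 717 were single peaks, 89 were pairs, 6 had 3 members, 1 had 4 and 1, that of ZC3HAV1L, had 7. The group of 4 lay 5631 to 6848 nt before the start of SLC44A5, a choline transporter-like protein, and inside its RefSeq form, all at 1 step. Its starts at 75616589 and 75617065 on chromosome 1 show a spacing that recurred through the list to the base, also among the other members of this group. Over all members, 176 (19.0%, 16.6 to 21.7%) had another peak whose start lay at exactly this distance, against 19.6% of the whole list and 28.5% (27.5 to 29.5%) of intron peaks. Only 1 of the 36 tall members had such a partner. Peaks of such a pair may not be independent, so the number of separate places is below 924, and the part of this spacing in the counts was not tested.

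UGUA was found about as often on either strand of the sequence past gene ends. Of the 453 members within 10 kb, 226 (49.9%, 45.2 to 54.6%) held TGTA on the strand of the upstream gene and 225 (49.7%) on the opposite strand. The motif occurred 3.70 times per kb on the gene strand and 3.49 times on the other, a ratio of 1.06 (0.923 to 1.22). Within 1 kb the ratio was 1.13 (0.880 to 1.46), and after genes with an exonic peak it was 1.10 (0.882 to 1.38). All 3 intervals include 1, so a difference between strands was not detectable in these numbers of motifs. This is a description of the reference letters under the peaks and does not show where the protein was bound.

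On either strand, TGTA was present in 69.0% (66.0 to 72.0%) of members, against 60.1% of all peaks, 76.6% of intron peaks and 48.4% of exon peaks. Exon peaks were shorter, with a median of 96 nt. Among peaks of 200 to 300 nt the shares were 71.5% (65.4 to 77.1%) for 242 members, 81.1% (79.3 to 82.7%) in introns and 75.2% (72.8 to 77.5%) in exons, so at equal length the interval of members lay below that of introns and overlapped that of exons. The poly(A) signal, searched as AATAAA or ATTAAA, was present on either strand in 42.2% of members, against 3434 of 7801 intron peaks (42.9 to 45.1%), 19.2% of exon peaks and 29.7% of all peaks. Within 10 kb, the gene strand held it 1.20 times (0.945 to 1.53) as often as the opposite strand. The median GC content was 45.3% in members, 42.4% in introns and 46.7% in exons.

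Gene lists with special 3' end processing, or from the study's setting, were set beside all genes. Over all genes, 381 of 62663 (0.608%) had a member within 10 kb for which theirs was the nearest upstream 3' end, as did 244 of 20033 protein-coding genes (1.22%). Of 69 replication-dependent histone genes, 0 did, whose mRNAs end in a stem-loop rather than a poly(A) tail. Of 86 cytosolic ribosomal protein genes, RPL34 alone did (1.16%), at 1328 nt with 2 steps, and 15 held a peak in their body, where 6750 of the 20033 protein-coding genes did. Of 1901 small nuclear RNA genes and pseudogenes, which include the Integrator-processed RNAs, 4 did, all of them pseudogenes by their names and with members of 1 step.

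Cleavage and polyadenylation factors were mostly marked inside their bodies. Of 23 genes of this list, 20 held a peak there, against the 6750 of 20033 given above. Past their ends, 1 gene (4.35%) had a member. This was CSTF2, which encodes the GU-rich element binding subunit of CstF, at 157 nt with 2 steps and a fold enrichment of 1.39. That distance is of the midpoint, and the peak began inside the annotated body of CSTF2. Its window, the last of the sequences shown above, lies past the annotated end. Among 20 genes tied to T-cell leukemia, 11 held a body peak (of protein-coding genes, 6750 of 20033) and 2 (10%) had a member. These were HES1, a target of Notch signalling, at 2724 nt, and TLX3, a homeobox oncogene, at 3682 nt, each with 1 step. Counts of 1 or 2 genes per list are too small to set these lists apart from genes in general.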

How the data were processed

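The eCLIP-seq reads of 1 replicate were, per the methods, trimmed by the authors with fastp 0.23.1, deduplicated by unique molecular identifier, cleared of ribosomal RNA and mapped to hg38. Peaks were called with MACS2 with local windows of 1000 and 10000 nt. The aligner, the control of the peak calling and whether the input was used are not given in the sources used here. The deposited list gives where each peak starts and ends, its Score, an enrichment, a p-value and an FDR, but no strand. The enrichment, deposited as a ratio (fold), is read here as comparing the pileup with the local background. How that ratio was formed is not given in the sources used here. Its median was 1.17 among members of 1 step and 2.29 among those of 5 or more. The limits on Score and on fold enrichment are therefore not separate settings. The deposited Score is read here as a signal, a pileup in steps of 0.228, a unit inferred from its values. The deposited p-value and FDR of each peak were used only to describe it.

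Gene bodies, ends and starts came from GENCODE 44, and RefSeq (GRCh38.p14) served as a second annotation. For each midpoint, the nearest 3' end upstream of it on the strand of its gene was taken, searching both strands. Densities are per Mb of intergenic hg38 sequence without N. Shares have exact Clopper-Pearson 95% intervals, and densities and their ratios exact Poisson intervals. For the downstream over upstream ratios these intervals take the 2 counts as separate, although some members are in both. They cover counting error only. No member failed a filter, since none was applied. Words of 30 bases were counted over the whole genome, and peaks were matched to spliced transcripts and mitochondrial DNA with BLAST+ 2.17.0. TGTA and AATAAA or ATTAAA were counted in the reference under each peak, on each strand. The distances were tested on simulated data, where 300 of 300 were recovered. The software was scipy 1.17.1, pandas 2.3.3, numba 0.67.0, pysam 0.24.0, numpy 2.4.6 and matplotlib 3.10.9 under Python 3.11.15.

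The members, gene lists and marker lists were chosen with earlier results of these data known. Genes are named for the 10 upstream genes with most members, the 10 tallest members, the 3 tallest per distance class, the 5 largest groups, members of the lists and the peaks nearest each limit. Other peaks of 5 or more steps named in the text were chosen after their values were seen. Alternatives covered the gene annotation, whole peaks, merged and chained peaks, limits on Score, fold enrichment and FDR, the choice of 3' ends, and the part of the peak searched for UGUA. The omission of members in RefSeq genes and the limit of 2 Score steps were chosen after seeing the data.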

Additional observations from a re-analysis of the deposited data

How the results depend on the processing

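Of these results, only the downstream over upstream density ratio within 10 kb has a direction. It stayed above 1 at every setting where it was computed, but its interval included 1 at some of them. The other results are shares, which have no direction to turn. The share of intergenic peaks, 4.51% in the report, was 4.18% when the whole peak had to lie outside genes and 8.63% with protein-coding gene bodies only. It was 1.45% at 2 or more Score steps, 0.415% at 5 or more, 0.373% at a fold enrichment of at least 2, 0% at an FDR under 0.05, and 3.57% without members in RefSeq genes. The share within 1 kb of a 3' end, 14.1%, was 11.2%, 7.24%, 20.8%, 16.7% and 20.7% for whole peaks, protein-coding bodies, 2 steps, 5 steps and the fold limit, in that order. With the ends of protein-coding genes it was 11.0%, and with those of genes that hold a peak 8.44%. The share within 10 kb, 49.0%, was 44.8% with bodies of protein-coding and long noncoding RNA genes, 26.3% with protein-coding bodies, 62.5% at 2 steps, 77.8% at 5 steps and 79.3% at the fold limit, and 35.2% and 24.8% with these 2 sets of ends. The downstream over upstream density ratio, 1.17, was 1.01 (0.885 to 1.14) with protein-coding bodies, 1.37 and 1.50 with these ends, and 1.36 at 2 steps. At 5 steps it was 1.29 (0.705 to 2.38) and at the fold limit 1.31 (0.667 to 2.60). The share with UGUA on the gene strand, 49.9%, was 55.8% at 2 steps, 28.6% at 5 steps, 30.4% at the fold limit, 67.1% on either strand, 30.2% in the central 100 nt and 62.5% with peaks extended by 50 nt. Why these values moved was not tested, beyond the longer or shorter sequence searched in the last cases. At 5 or more steps, 8 of the 28 peaks within 10 kb held the motif, 5 of them in the run past ZC3HAV1L. The 36 intergenic peaks of 5 or more steps, at any distance, were shorter, with a median of 70.5 nt against 262 nt for all 924 members. A shorter peak has less room for the motif, and the UGUA shares at these limits were not compared at equal length. Merging peaks within 100 nt, or keeping 1 peak of each chain at the recurring spacing, moved no result beyond its interval.

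At an FDR under 0.05 no member remained, so the other results had no value there. No library was left out, as there was 1. No paired analysis was possible because each group had a single library and the list held only that of the antibody. The depth is unknown, and most members have the lowest Score in the list.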
